A study of Acomys cahirinus and Mus musculus with 6 samples.

Results

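The 7 genes described here are the keratins of the basal and spinous epidermis: Krt5, Krt14, Krt15, Krt1, Krt10, Krt2 and Krt77. They were taken by name from a list, and all 7 were among the 20381 genes of the count table. Their levels were read across the annotated cell types, the clusters and the 6 libraries of a droplet single-cell RNA study of healing ear punch wounds.

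The study holds 39577 cells from 6 libraries of ear pinna skin. Of these, 4 came from spiny mice (Acomys cahirinus, a rodent that regrows ear tissue after a punch), which are labelled wild-type. Injections between day 12 and day 15 held either the solvent DMSO (the control) or an inhibitor of ERK, of ErbB2 or of the FGF receptors (called the FGFR inhibitor below). The other two libraries came from CD1 mice, a laboratory strain that heals the same wound with a scar, given beads on day 10 that carried PBS (the control) or FGF2 together with NRG1, both growth factors. ERK is a kinase downstream of FGF and ErbB receptors. NRG1 is a ligand of ErbB receptors. The sources used here state neither the ages of the animals nor how many were pooled in a library. Each group was 1 library, so no test was possible, and a difference compares libraries rather than treatments. The 3 inhibitor libraries share the DMSO control.

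Keratins are the intermediate filament proteins of epithelial cells, and each filament pairs a type I with a type II keratin. Basal keratinocytes, the dividing cells on the basement membrane, build filaments from Krt5 (type II) and Krt14 (type I), and Krt15 is a further type I keratin of basal cells and of hair follicle stem cells. On leaving the basement membrane, a cell switches to Krt1 (type II) and Krt10 (type I) in the spinous layer. Krt2 and Krt77 are type II keratins of suprabasal cells, Krt2 in the upper spinous layer and Krt77 in suprabasal epidermis and sweat ducts.

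In GENCODE vM21, the gene annotation of the mouse build GRCm38, the 4 type II genes lie on chromosome 15 and the 3 type I genes on chromosome 11, all on the minus strand. Krt5 spans chr15:101707070-101712898, Krt2 chr15:101810689-101818169, Krt1 chr15:101845426-101850794 and Krt77 chr15:101858731-101869705. Krt10 spans chr11:99385254-99389364, Krt15 chr11:100131758-100135928 and Krt14 chr11:100203162-100207548. Each type II transcript has 9 exons and each type I transcript 8.

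The coding sequences of these genes resemble each other, which matters when short reads are assigned to one of them. The stretches below are 60 bases of the 3 mouse type I transcripts. They were placed around the longest run shared by Krt14 and Krt10, with the best match to it in Krt15. Bases are in capitals where a gene differs from Krt14. They lie within exon 3, at chr11:100205030-100205089 (Krt14), chr11:99387580-99387639 (Krt10) and chr11:100134257-100134316 (Krt15).
Krt14: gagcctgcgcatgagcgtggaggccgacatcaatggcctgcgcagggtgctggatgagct
Krt10: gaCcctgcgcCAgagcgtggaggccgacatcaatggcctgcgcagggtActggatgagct
Krt15: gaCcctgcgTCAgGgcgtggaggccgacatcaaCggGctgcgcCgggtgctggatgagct

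Krt10 differed from Krt14 at 4 of these 60 bases and Krt15 at 8. Libraries made with 3′ kits read the end of the transcript. There the genes are distinct: in the last 300 bases the longest run of identical bases between any pair of the 7 transcripts was 11, and 17 between one of them and any of 113 transcripts of genes named Krt or Krtap. Over whole transcripts the longest run shared with a keratin outside the 7 was 140 bases for Krt5 (with Krt6a) and 134 for Krt14 (with Krt16). The reads of the spiny mouse were counted under mouse gene names, so a spiny mouse value is what was counted under that name, and no ratio across species was taken.

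Levels are given as CPM, the gene's unique molecular identifiers (UMIs) per 1000000 UMIs of the cells summed. A UMI marks 1 captured molecule at its 3′ end, so the counts were not divided by gene length. Basal cells are the clusters annotated as basal interfollicular epidermis, cycling ones included, and suprabasal cells the clusters annotated as suprabasal. The annotation was made on the same cells and genes, so the layer pattern is a description. It was read without clusters 9, 13, 21 and 31. Their leading genes in a control library held more markers of another type than of their own. These other markers were S100a8 and S100a9 in cluster 9, Hbb-bs and Hba-a2 in cluster 21, Krt5 in cluster 13 (PBS) and Lhx2 in cluster 31. The marker lists name every member except Krt2, so the choice of clusters was not independent of the layer pattern. Clusters 41 and 46, annotated as suprabasal, were also left out for more CPM of basal than of spinous genes other than keratins. This left 5182 basal and 1773 suprabasal cells with DMSO, 126 and 112 with the ERK inhibitor, 2351 and 1759 with the ErbB2 inhibitor, 1229 and 825 with the FGFR inhibitor, 578 and 295 with PBS, and 546 and 283 with FGF2 and NRG1. Between 26.8% and 43.8% of the annotated suprabasal cells of a library were left out in this way. Median depth ran from 3125 UMIs per cell with DMSO to 6915 with the ERK inhibitor, and 184 cell barcodes were shared between libraries, at most 49 by one pair.

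Krt5 was a basal keratin in every library. In basal cells it stood at 19464 CPM with DMSO, 18152 with the ERK inhibitor, 14023 with the ErbB2 inhibitor, 19258 with the FGFR inhibitor, 8364 with PBS and 8331 with FGF2 and NRG1. Its suprabasal level in the same order was 1668, 70, 534, 488, 1302 and 1002 CPM. The layer difference (log2 of suprabasal over basal) ran from -8.00 with the ERK inhibitor to -2.68 with PBS. The ErbB2 inhibitor library was the lowest of the 4 spiny mouse libraries in basal cells.

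Krt14, the type I partner of Krt5, followed the same layers. Its basal level was 3949 CPM with DMSO, 4518 with the ERK inhibitor, 2716 with the ErbB2 inhibitor, 3526 with the FGFR inhibitor, 20540 with PBS and 20762 with FGF2 and NRG1. In suprabasal cells it was 305, 15, 107, 86, 1411 and 913 CPM, and the layer difference ran from -8.15 with the ERK inhibitor to -3.70 with DMSO. Within basal cells the ratio of Krt14 to Krt5 UMIs was 0.183 to 0.249 in the spiny mouse libraries and 2.46 to 2.49 in the mouse libraries. Whether the spiny mouse ratio reflects the cells or the match of each transcript to its mouse name was not tested.

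Krt15 was higher in the hair follicle than in the interfollicular epidermis. Its basal level was 1806 CPM with DMSO, 1942 with the ERK inhibitor, 1517 with the ErbB2 inhibitor, 2501 with the FGFR inhibitor, 8211 with PBS and 4505 with FGF2 and NRG1. The suprabasal level was 183, 20, 81, 84, 1385 and 566 CPM. Across types of at least 15 cells, hair germ and outer bulge had the highest Krt15 in all 6 libraries: 4088 CPM with DMSO, 5904 with the ERK inhibitor, 3597 with the ErbB2 inhibitor, 6684 with the FGFR inhibitor, 17255 with PBS and 16913 with FGF2 and NRG1. The next type was the outer root sheath in 4 of these libraries.

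Krt10 was the most counted member in the suprabasal cells of every library. It reached 85235 CPM there with DMSO, 79337 with the ERK inhibitor, 91881 with the ErbB2 inhibitor and 74510 with the FGFR inhibitor, against 21972 with PBS and 24701 with FGF2 and NRG1. In basal cells the same libraries had 7475, 2065, 5309, 2842, 526 and 388 CPM. The layer difference was smallest with DMSO (3.51) and largest with FGF2 and NRG1 (5.99).

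Krt1, the type II partner of Krt10, stood at 16382 CPM in suprabasal cells with DMSO, 12102 with the ERK inhibitor, 15316 with the ErbB2 inhibitor, 12967 with the FGFR inhibitor, 6260 with PBS and 5369 with FGF2 and NRG1. Its basal level was 2710, 386, 1850, 1095, 261 and 181 CPM. Among the spiny mouse libraries, basal Krt1 and Krt10 were both highest with DMSO and lowest with the ERK inhibitor.

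Krt2 had suprabasal levels of 2325 CPM with DMSO, 1898 with the ERK inhibitor, 2856 with the ErbB2 inhibitor, 2309 with the FGFR inhibitor, 6565 with PBS and 9517 with FGF2 and NRG1. Basal cells had 126, 59, 119, 82, 408 and 156 CPM of it. Krt77 had suprabasal levels of 4686 CPM with DMSO, 3343 with the ERK inhibitor, 4723 with the ErbB2 inhibitor, 7874 with the FGFR inhibitor, 2104 with PBS and 981 with FGF2 and NRG1, and basal levels of 334, 8, 202, 154, 10 and 5 CPM. Krt77 had the largest layer difference of the 4 spinous keratins in each library other than DMSO, where it was Krt2, and ErbB2 inhibitor, where Krt2 (4.58) and Krt77 (4.55) had intervals that overlapped. All 42 pairs of member and library were at least 1.5-fold apart in the direction of the member's layer. The markers used to leave out clusters include members, so this count is not independent of that choice.

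**Figure D1:**
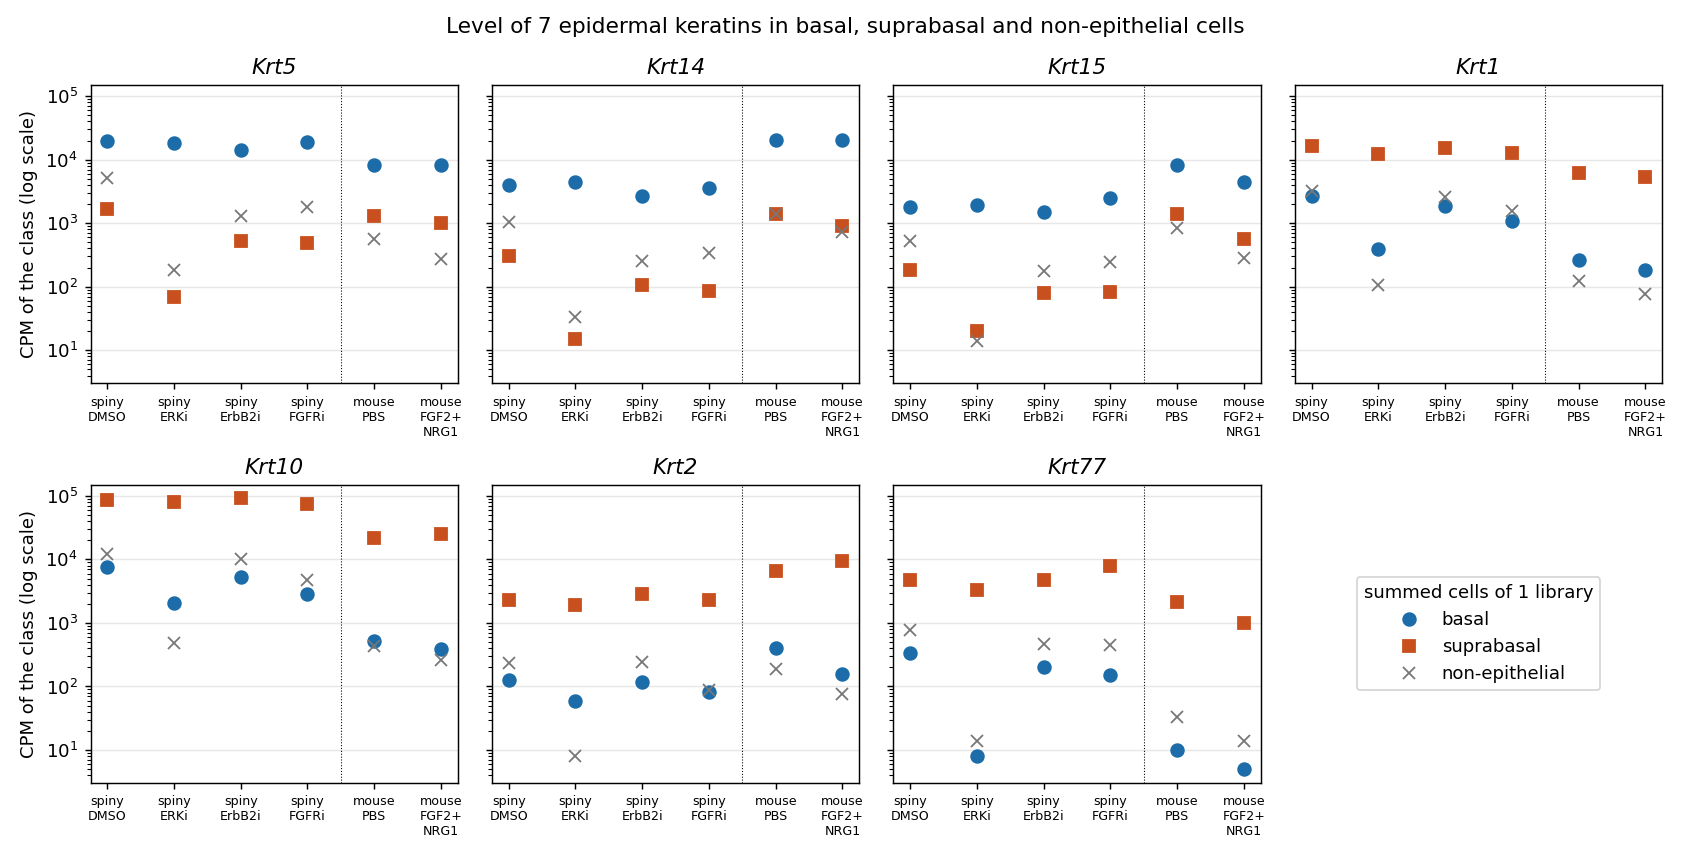
CPM (log scale) of each keratin in the summed basal (circles), suprabasal (squares) and non-epithelial cells (crosses) of each of 6 libraries. Suprabasal Krt10 lies between 74510 and 91881 in the 4 spiny mouse libraries, while the crosses of the ERK inhibitor library lie far below those of the DMSO library.

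Non-epithelial cells are not known to make epidermal keratins, and UMIs of the 7 genes counted there serve as the background of RNA from other cells. Over 9 types (fibroblasts, endothelium, T-cells, B-cells, resident macrophages, circulating monocytes, dendritic cells, chondrocytes, dermal sheath and papilla), the 7 genes summed to 23380 CPM with DMSO, 851 with the ERK inhibitor, 15071 with the ErbB2 inhibitor, 9241 with the FGFR inhibitor, 3610 with PBS and 1692 with FGF2 and NRG1. The types are used as annotated, although the leading genes of clusters 7 (circulating monocytes), 34 (fibroblasts) and 45 (resident macrophages) held 0 of the markers listed for those names (macrophage markers for the monocytes) and included markers of other non-epithelial types, such as neutrophils, skeletal muscle or mast cells. Cluster 38 (dermal sheath and papilla) was led by smooth muscle and pericyte markers. The DMSO library was the highest and the ERK inhibitor library the lowest. In the DMSO library all 9 types carried them: Krt5 ran from 3838 CPM in dermal sheath and papilla to 7367 in B-cells, with a median of 5257 over the types, and Krt10 from 7789 in dendritic cells to 19649 in B-cells. The highest type was 3.94 times the non-epithelial median for Krt5 and 5.65 times for Krt10, against 89.4 and 146 times with the ERK inhibitor.

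The mixture of the 7 genes in non-epithelial cells was close to that of the whole library with DMSO and the ErbB2 inhibitor. With DMSO, Krt10 made up 52.7% of the members' UMIs in non-epithelial cells and 54.3% in the library, and Krt5 22.4% and 20.6%. With the ErbB2 inhibitor, Krt10 made up 66.4% in both, and Krt5 8.61% and 9.66%. With PBS it was less close, with Krt10 at 12.2% in non-epithelial cells and 17.5% in the library and Krt15 at 23.3% and 18.0%. Part of this RNA sat in few cells: 5.08% of the non-epithelial cells with DMSO and 5.19% with the ErbB2 inhibitor had over 5% of their UMIs from the 7 genes, against 0.897% with the FGFR inhibitor and 0 cells in the other libraries. Without such cells, the DMSO sum was 19964 CPM. Doublets were not called, and their part in this was not tested.

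**Figure D2:**
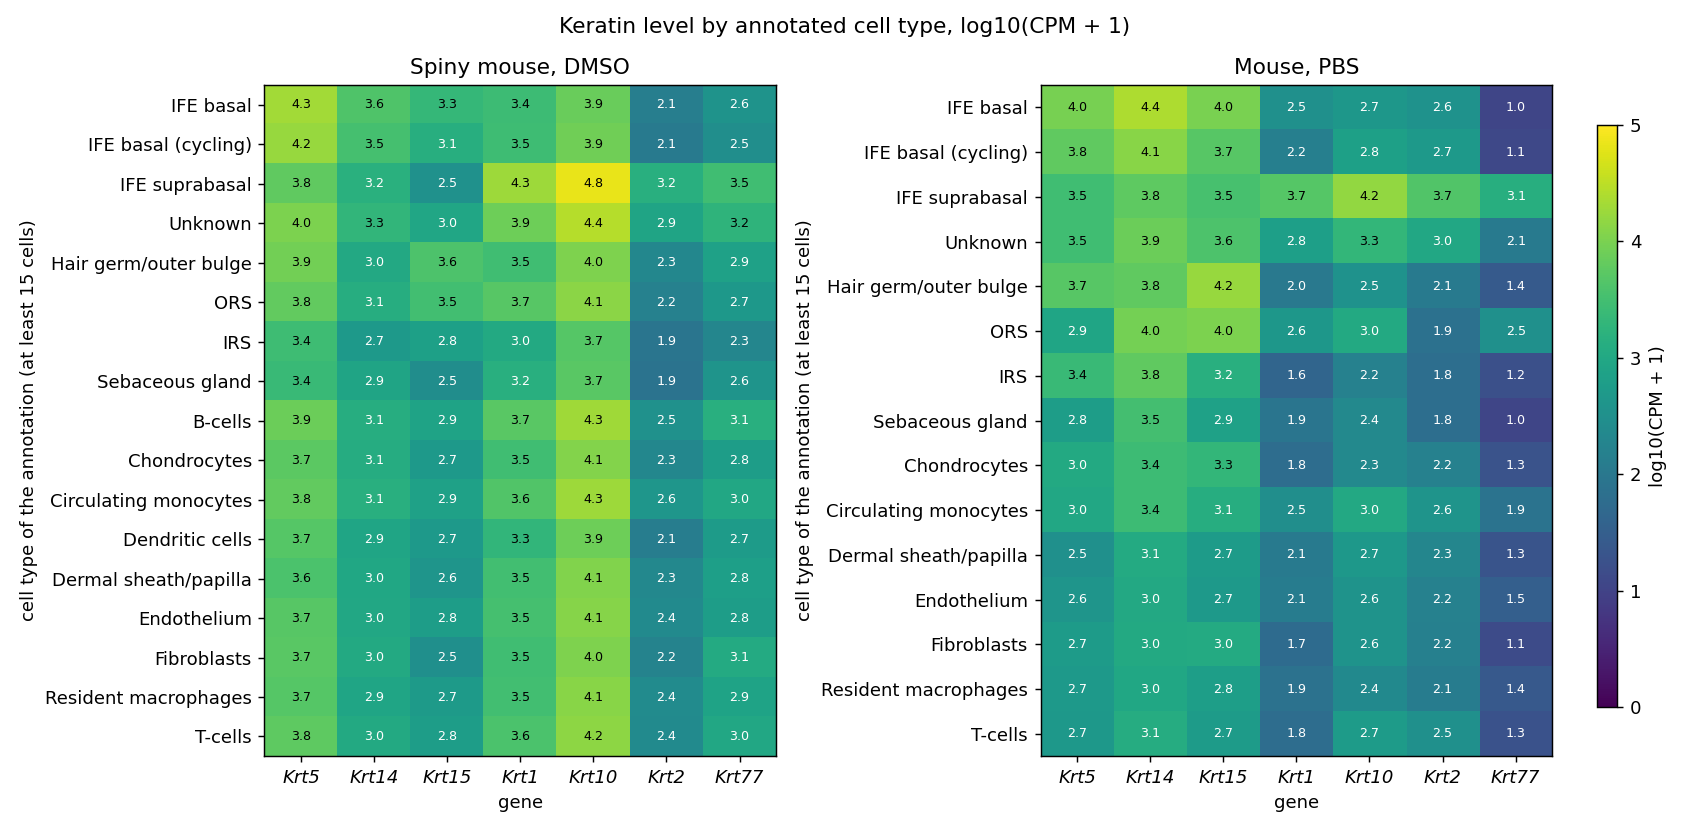
Colour and number give log10(CPM + 1) of each keratin (columns) in each annotated cell type of at least 15 cells (rows), for the DMSO library of the spiny mouse and the PBS library of the mouse. Krt5 is highest in the basal type (20691 CPM with DMSO, 9499 with PBS) and Krt10 in the suprabasal type (68377 and 15663 CPM), and in the DMSO library both are also high in every non-epithelial type.

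Per cell, the members counted in the layer they do not mark were close to this background with DMSO and the ErbB2 inhibitor. With DMSO a basal cell held on average 36.5 Krt10 UMIs and a non-epithelial cell 33.8. For Krt2 these means were 0.616 and 0.648, for Krt77 1.63 and 2.15, and for Krt1 13.2 and 8.84. Suprabasal cells with DMSO held 11.2 Krt5 UMIs and non-epithelial cells 14.3. With the ErbB2 inhibitor the same ratios of basal to non-epithelial cells were 1.48 for Krt1, 1.11 for Krt10, 1.01 for Krt2 and 0.908 for Krt77. With the FGFR inhibitor they were 1.93, 1.61, 2.47 and 0.908. Basal cells of the ERK inhibitor library, with a median of 15652 UMIs against 3758 with DMSO, held 36.3 Krt10 UMIs where non-epithelial cells held 3.25, a ratio of 11.2. The medians were 7 and 3 UMIs, so the mean rests on part of the cells, and the median in DMSO basal cells was 22. In mouse basal cells with PBS the mean was 6.32 times the background for Krt1, 3.55 times for Krt10, 6.42 times for Krt2 and 0.924 times for Krt77. The medians were 1, 2 and 1 UMIs of Krt1, Krt10 and Krt2, against 0, 1 and 0 in non-epithelial cells, and 1081 of the 2906 basal Krt2 UMIs lay in cluster 19.

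Both sets of keratins were detected together in most spiny mouse basal cells. After each cell was thinned to 1000 UMIs, 99.1% of DMSO basal cells had a UMI of Krt5 or Krt14 and also one of Krt1 or Krt10 (95% interval 98.8% to 99.4%, exact Clopper-Pearson, 5133 cells). Of non-epithelial cells in that library, 94.0% had both, and both shares are near the ceiling of 100%. With at least 3 UMIs of each set the shares were 92.0% of basal and 72.8% of non-epithelial cells with DMSO, 80.4% and 25.7% with the ErbB2 inhibitor, 53.7% and 20.1% with the FGFR inhibitor, and 29.3% and 1.09% with the ERK inhibitor. In the mouse they were 6.98% and 6.87% with PBS and 5.97% and 2.02% with FGF2 and NRG1. With at least 1 UMI of each, the shares in basal cells were 56.9% with the ERK inhibitor (123 cells), 96.6% with the ErbB2 inhibitor, 89.6% with the FGFR inhibitor, 39.2% with PBS and 35.5% with FGF2 and NRG1. In non-epithelial cells they were 15.2%, 71.7%, 69.6%, 45.0% and 27.6%. Without thinning, all 5182 DMSO basal cells and 99.8% of the non-epithelial ones had both, at median depths of 3758 and 1769.5 UMIs. Unthinned basal shares were 99.2% with the ERK inhibitor, 99.96% with the ErbB2 inhibitor and 99.9% with the FGFR inhibitor. In the mouse they were 90.7% with PBS and 85.2% with FGF2 and NRG1. Non-epithelial cells had 64.4%, 95.7%, 92.0%, 83.55% and 70.3% in the same order. Basal cells with the ERK inhibitor had a median of 15651.5 UMIs, so thinning took more from them. Thinning left out 49 basal and 371 non-epithelial DMSO cells below 1000 UMIs.

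Of suprabasal cells thinned in the same way, 76.4% had both sets and 23.6% only Krt1 or Krt10 with DMSO, and 27.6% and 72.4% with the ERK inhibitor (105 cells), where no basal cell had only Krt1 or Krt10 (0 of 123, exact Clopper-Pearson upper bound 2.96%). A DMSO basal cell held a median of 21 UMIs of Krt5 and Krt14 and 8 of Krt1 and Krt10 per 1000. A suprabasal cell held 2 and 94. A non-epithelial cell held 5 and 14. UMIs of Krt1 and Krt10 exceeded those of Krt5 and Krt14 in 18.8% of DMSO basal cells and 26.8% with the ErbB2 inhibitor. The share was 6.23% with the FGFR inhibitor, 0.813% with the ERK inhibitor, 0.358% with PBS and 1.54% with FGF2 and NRG1. These shares rank the spiny mouse libraries differently from the background sum only in placing the ErbB2 inhibitor above DMSO. The part of background RNA in these shares was not tested. Depth also differed, with basal medians from 3758 UMIs with DMSO to 15651.5 with the ERK inhibitor.

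**Figure D3:**
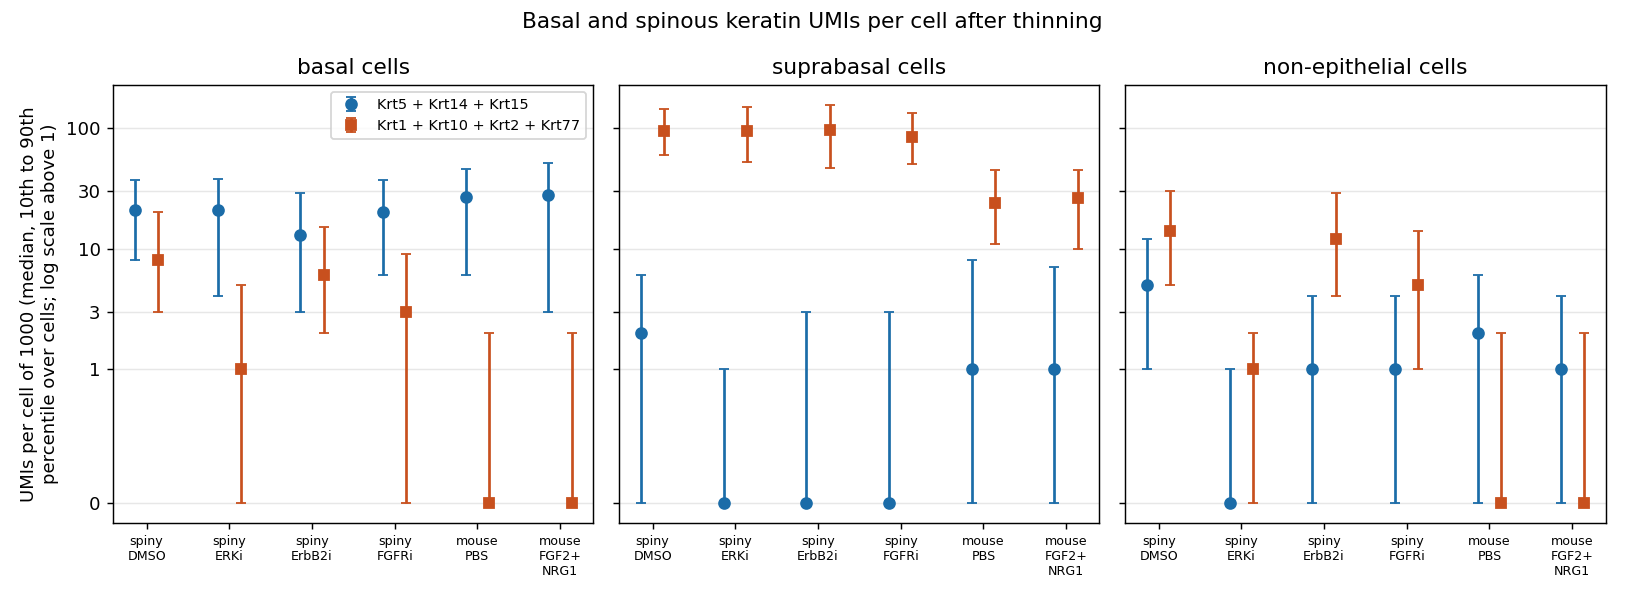
Median (points) and 10th to 90th percentile over cells (bars) of UMIs per cell thinned to 1000, by library, in 3 classes (log scale above 1). Circles count Krt5 and Krt14, and squares count Krt1 and Krt10. The legend also names Krt15, Krt2 and Krt77, which were not counted. DMSO basal cells have medians of 21 and 8, and mouse basal cells have a median of 0 for Krt1 and Krt10.

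Clusters within a layer differed widely. Among DMSO basal clusters, Krt5 ran from 7188 CPM in cluster 22, a cycling cluster with Top2a and Hist1h1a among its leading genes, to 28095 in cluster 16. Krt14 was also highest in cluster 16 (6787 CPM), whereas Krt15 was highest in cluster 31 (5753 CPM), which has the follicle gene Lhx2 among its leading genes. Among suprabasal clusters, Krt10 was highest in cluster 27 (108584 CPM), and Krt77 in cluster 35 (9940 CPM), which has Flg and Hrnr, genes of the granular layer above, among its leading genes.

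The clusters that were left out show other combinations of the same keratins. Cluster 9, with the wound keratins Krt6a and Krt16 among its leading genes, had the highest Krt1 of the suprabasal clusters (31163 CPM) with 65676 CPM of Krt10, but 147 CPM of Krt2 and 559 of Krt77. Cluster 46, of 82 DMSO cells led by Mmp9 and Mmp13, had 34656 CPM of Krt5 and 10094 of Krt14 with 795 of Krt1. In the mouse PBS library, cluster 41 had 10304 CPM of Krt15 and 233 of Krt10. All 3 are annotated as suprabasal.

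The genes whose level across clusters was most like each member's are given by Pearson r of log2(CPM + 1), over 42 clusters with DMSO and 27 with PBS of at least 30 cells each. All points of a library share its depth and its background RNA. With DMSO, Krt5 was most like Col17a1 (r = 0.96), a hemidesmosome collagen, Krt14 (0.93) and Lamb3 (0.92), a laminin chain. Krt14 was most like Krt5, then the transcription factor gene Sox15 (0.89) and Col17a1 (0.85). Krt15 had lower values, led by Bcam (0.81), Slc6a6 (0.80) and Car11 (0.80). Krt1 was most like Krt10 (0.96), Krtdap (0.96) and Rbp2 (0.94), and Krt10 like Krtdap (0.99), Gm94 (0.97) and Ggct (0.96). For Krt2 the 3 genes were Igfl3 (0.93), Krt10 (0.91) and Ggct (0.91), and for Krt77 Klk5 (0.95), Dmkn (0.95) and Hal (0.95).

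With PBS, Krt5 was most like Krt14 (0.93), Wnt10a (0.88) and Wnt4 (0.87), and Krt14 like Krt5, Wnt4 (0.88) and the desmoglein gene Dsg3 (0.87). Krt15 was led by Dsg3 (0.89), Ccl27a (0.88) and Cib2 (0.86). Krt1 and Krt10 were most like each other (0.96), followed for both by Calm4 (0.95 and 0.96) and Krtdap (0.94 and 0.95). Krt2 was most like Serpinb3b (0.94), Krt10 (0.94) and Gm94 (0.90), and Krt77 like Skint9 (0.88), Krt78 (0.86) and Elovl4 (0.85). The Krt5 and Krt14 pair and the Krt1 and Krt10 pair had about the same r in both libraries.

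For each treated library against its control, a gene counts as higher or lower when its CPM differed by at least 1.5-fold, with at least 30 UMIs over both libraries. Intervals in these comparisons are exact conditional Poisson 95% intervals and cover counting error only. The 3 inhibitor comparisons gave 42 pairs of member and layer. In the layer that a member marks, 1 of 21 pairs passed 1.5-fold. In the other layer 18 of 21 did, all lower than DMSO, and all 21 of those pairs were under 2 times the non-epithelial mean per cell in at least 1 library of the pair. For those pairs the ratio of the same gene in non-epithelial cells is given beside the value.

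The first comparison asks what the ERK inhibitor library shows against DMSO. No member passed 1.5-fold in its own layer. In basal cells Krt5 was 18152 against 19464 CPM (log2 ratio -0.10, interval -0.12 to -0.09), Krt14 4518 against 3949 (0.19) and Krt15 1942 against 1806 (0.10). In suprabasal cells the log2 ratio was -0.10 for Krt10, -0.44 for Krt1, -0.29 for Krt2 and -0.49 for Krt77. Without cells above the 99th percentile of UMIs, Krt1 (-0.73) and Krt77 (-0.64) passed 1.5-fold, and at the DMSO mix of clusters 5 and 10 Krt1 did (-0.90). With cells thinned, Krt1 was at -0.16 and Krt77 at 0.08. Clusters 5 and 10 had Krt2 at 0.02 and 0.66.

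In the other layer all 7 were lower with the ERK inhibitor. In basal cells Krt77 had 17 UMIs against 8452 (log2 ratio -5.36), Krt1 was at -2.81, Krt10 at -1.86 and Krt2 at -1.08. The same genes in non-epithelial cells were at -5.76, -4.90, -4.65 and -4.74. In suprabasal cells Krt5 was at -4.56, Krt14 at -4.26 and Krt15 at -3.14, where non-epithelial cells had -4.82, -4.93 and -5.18. With all annotated clusters Krt5 was at -1.51 and Krt14 at -1.12, and with clusters 41 and 46 kept at -5.68 and -5.80. With cells thinned these genes were at -2.89, -1.98 and -2.10. The part of background RNA in these values was not tested, and no value could be had after subtracting it. In cluster 0, the one basal cluster with 30 cells in both libraries, Krt10 was at -0.78 and Krt2 at -0.47, the second within 1.5-fold. Krt1 was at -2.425 there and Krt77 at -5.88, on 3 against 1498 UMIs. Of all genes tested in basal cells, 11.1% were lower and 14.5% higher, and in suprabasal cells 12.9% and 12.3%.

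The second comparison sets the ErbB2 inhibitor against DMSO. Basal Krt5 was 14023 against 19464 CPM (log2 ratio -0.47, interval -0.48 to -0.47) and Krt14 2716 against 3949 (-0.54), both short of 1.5-fold. Krt5 was lower in all 9 basal clusters with 30 cells in both libraries, and by at least 1.5-fold in 4 of them. Its cluster values ran from -1.09 in cluster 24, a cycling cluster, to -0.01 in cluster 16. For Krt14, 9 of 9 clusters were lower, 6 of them by at least 1.5-fold, and it passed 1.5-fold with cells thinned (-0.61) or averaged (-0.64). Krt15 differed less (-0.25), and its clusters ran from -0.82 to 0.48. At the DMSO mix of clusters Krt5 was at -0.36 and Krt14 at -0.40.

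In suprabasal cells the spinous keratins stayed within 1.5-fold of DMSO with the ErbB2 inhibitor. Krt10 was 91881 against 85235 CPM (0.11), Krt1 15316 against 16382 (-0.10), Krt2 2856 against 2325 (0.30) and Krt77 4723 against 4686 (0.01). The median gene in these cells was at -0.11, so each lies that much higher relative to it. Krt77 was lower in 4 of 5 suprabasal clusters, by at least 1.5-fold in 2, and at -0.20 at the DMSO mix of clusters. In the other layer 4 of 7 pairs were lower: suprabasal Krt5 (-1.64), Krt14 (-1.50) and Krt15 (-1.17), and basal Krt77 (-0.73). Non-epithelial cells had -2.01, -2.05, -1.56 and -0.75 for these genes. Basal Krt1 (-0.55), Krt10 (-0.49) and Krt2 (-0.08) stayed within 1.5-fold, beside -0.30, -0.30 and 0.06 in non-epithelial cells. Suprabasal Krt15 fell short of 1.5-fold with cells thinned (-0.43) or averaged (-0.48). Of all genes, 7.05% were lower and 7.47% higher in basal cells, and 13.7% and 5.74% in suprabasal cells.

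The third comparison sets the FGFR inhibitor against DMSO. Krt77 was the member that passed 1.5-fold in its own layer, with 7874 against 4686 CPM in suprabasal cells (log2 ratio 0.75, interval 0.73 to 0.76). By cluster it was higher in 4 of 5: 13970 against 8131 CPM in cluster 27, 13176 against 9940 in cluster 35, 10530 against 8389 in cluster 10 and 4255 against 3314 in cluster 5. In cluster 15 it was 688 against 938. At the DMSO mix of clusters it was at 0.52, short of 1.5-fold. Cluster 10 made up 16.2% of annotated suprabasal cells with the FGFR inhibitor and 8.44% with DMSO, and cluster 35 8.91% and 4.30%.

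The other own-layer values with the FGFR inhibitor lay closer to DMSO. Basal Krt5 was 19258 against 19464 CPM (-0.02), Krt14 3526 against 3949 (-0.16) and Krt15 2501 against 1806 (0.47, 7 of 8 clusters higher). Krt15 passed 1.5-fold (0.67) once the non-epithelial mean was subtracted. Suprabasal Krt10 was at -0.19, Krt1 at -0.34 and Krt2 at -0.01. In the other layer all 7 were lower: basal Krt1 (-1.31), Krt10 (-1.40), Krt2 (-0.62) and Krt77 (-1.12), and suprabasal Krt5 (-1.77), Krt14 (-1.82) and Krt15 (-1.12). Non-epithelial cells had -1.08, -1.37, -1.41, -0.78, -1.52, -1.65 and -1.08 in the same order. With clusters 41 and 46 kept, suprabasal Krt5 was at -0.78 and Krt14 at -0.59, and with all annotated clusters at -0.66 and -0.54, the last short of 1.5-fold. Suprabasal Krt15 fell short of 1.5-fold with cells thinned (-0.46), averaged (-0.52) or in all clusters (-0.53). Of all genes, 6.51% were lower and 4.03% higher in basal cells, and 11.9% and 4.75% in suprabasal cells.

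The last comparison is in the mouse, FGF2 and NRG1 beads against PBS beads. Krt15 was lower in both layers. In basal cells it was 4505 against 8211 CPM (log2 ratio -0.87, interval -0.89 to -0.84), while Krt5 was 8331 against 8364 (-0.01) and Krt14 20762 against 20540 (0.02). Krt15 was lower in all 5 basal clusters with 30 cells in both libraries, by at least 1.5-fold in 4: 6265 against 10552 CPM in cluster 33, 3150 against 5074 in cluster 22, 4530 against 7084 in cluster 24 and 5386 against 8202 in cluster 30. In cluster 19 it was 4017 against 5000. Basal cells held 43.6 against 101 Krt15 UMIs per cell, and non-epithelial cells 1.37 against 3.48. After subtracting the non-epithelial mean the log2 ratio was -0.86. Hair germ and outer bulge had 16913 against 17255 CPM, where the type with most Krt15 differed by far less than the basal cells.

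Krt77 was lower in suprabasal cells with FGF2 and NRG1, at 981 against 2104 CPM (-1.10, interval -1.17 to -1.04). In cluster 10 it was 351 against 3940 CPM (-3.43), and in cluster 39 123 against 292 (-1.24). Cluster 10 rests on 23 and 299 UMIs in 49 and 50 cells and cluster 39 on 225 and 717, so most of the 2645 and 8225 Krt77 UMIs of the class lay in other clusters. Those with the most were cluster 27, at 3708 against 5765 CPM in 29 and 33 cells, and cluster 35, at 9836 against 8850 in 13 and 11 cells, where Krt77 was not lower. The class mean was 9.35 against 27.9 UMIs per cell and the median 0 against 1. Krt2 was 9517 against 6565 CPM in suprabasal cells (0.54), passing 1.5-fold with cells thinned (0.77) or averaged (0.74) and in cluster 10 (1.11), but not in cluster 39 (0.38) or at the PBS mix of clusters (0.41). Krt10 was 24701 against 21972 CPM (0.17) and Krt1 5369 against 6260 (-0.22).

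In the other layer 4 of 7 pairs were lower with FGF2 and NRG1. Basal Krt2 was 156 against 408 CPM (-1.39) and basal Krt77 rested on 29 against 72 UMIs (-0.85). Over the 5 basal clusters compared, Krt2 was lower in cluster 19 (98 against 1081 UMIs, -3.12) and cluster 33 (-1.02), and within 1.5-fold in clusters 22 (-0.11), 24 (0.04) and 30 (0.35). Suprabasal Krt15 was at -1.29 and Krt14 at -0.63. Within 1.5-fold were basal Krt1 (-0.53), basal Krt10 (-0.44) and suprabasal Krt5 (-0.38). Non-epithelial cells had -1.30 for Krt2, -1.25 for Krt77, -1.60 for Krt15 and -0.97 for Krt14. Of these 4 pairs, Krt77 was under 2 times the non-epithelial mean per cell. With all annotated clusters, suprabasal Krt14 was at 0.08 and Krt15 at -0.57, and with clusters 41 and 46 kept they were at -0.28 and -0.63. Krt14 also fell short of 1.5-fold with cells thinned (-0.55) or averaged (-0.51). Of all genes, 3.89% were lower and 4.92% higher in basal cells, and 5.56% and 4.37% in suprabasal cells.

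**Figure D4:**
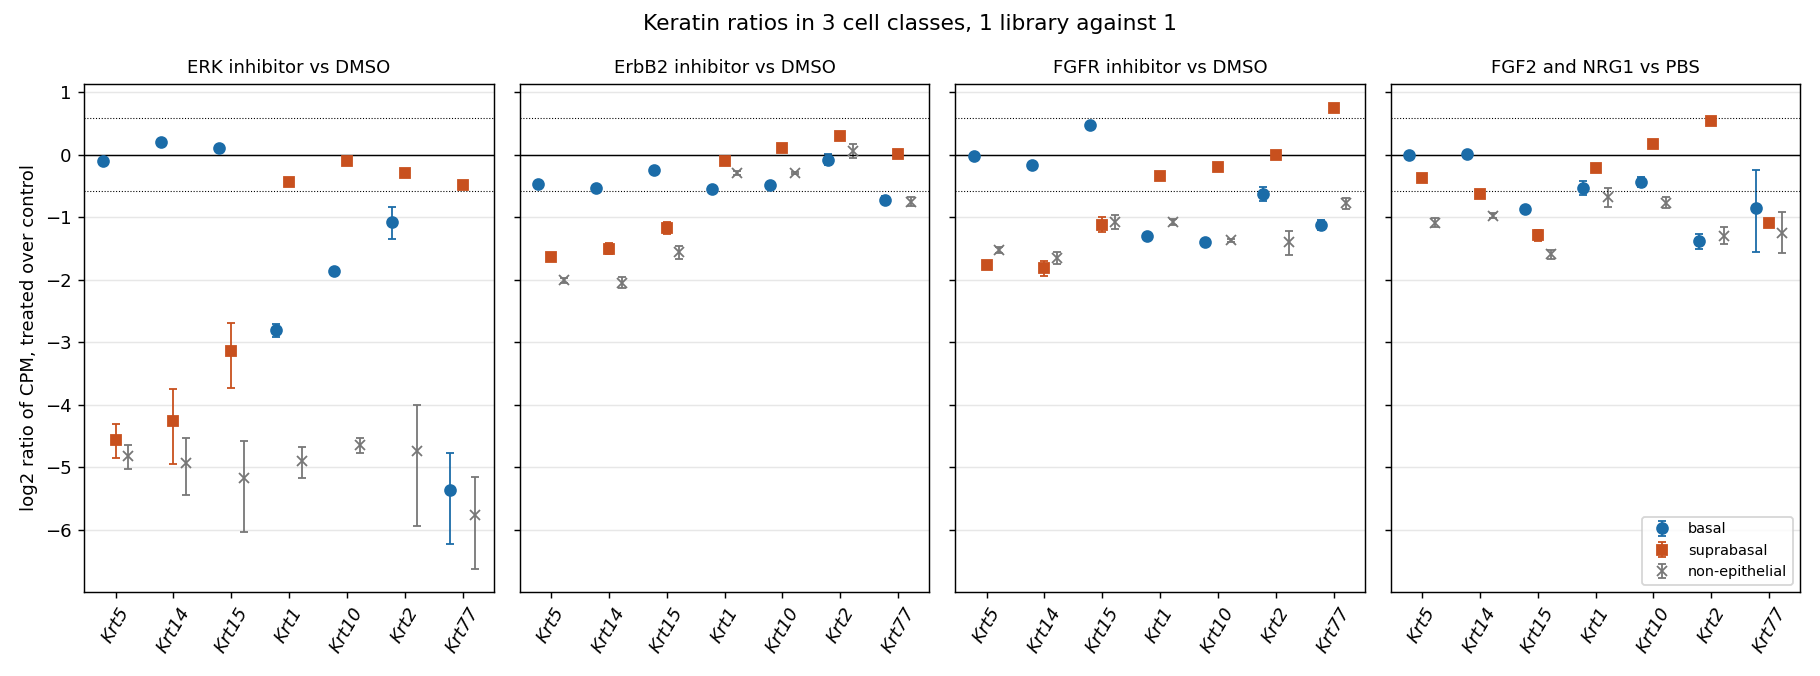
Log2 ratio of CPM, treated over control, for each keratin in basal (circles), suprabasal (squares) and non-epithelial cells (crosses), with 95% counting intervals, and dotted lines at 1.5-fold. In the 3 inhibitor panels the points of the layer a keratin does not mark lie lower than those of its own layer, and the crosses reach -5.76 with the ERK inhibitor.

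**Figure D5:**
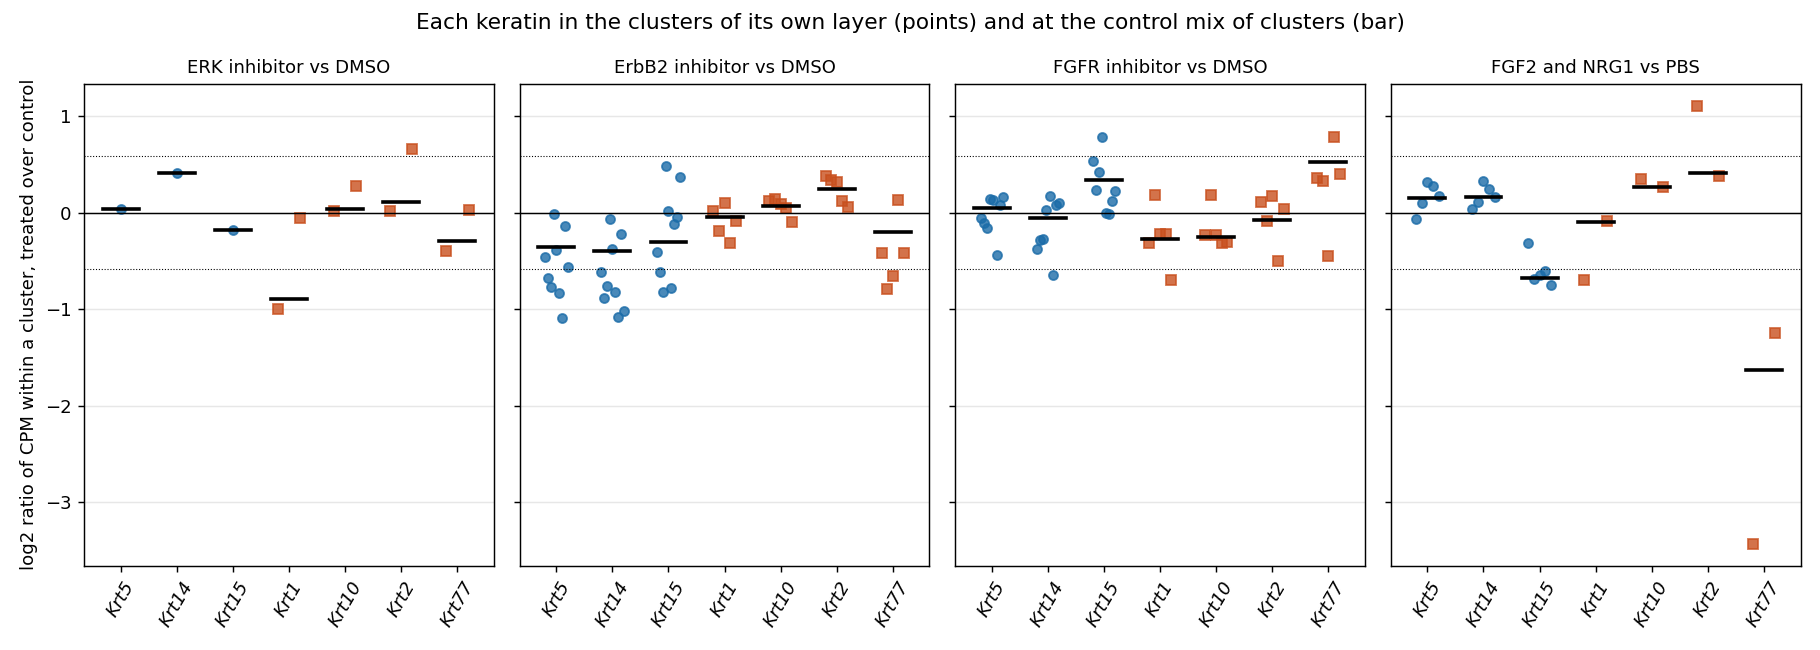
Log2 ratio of CPM, treated over control, of each keratin within each cluster of the layer it marks (circles basal, squares suprabasal), with a bar for the value at the control's mix of clusters and dotted lines at 1.5-fold. Krt5 and Krt14 lie below 0 in all 9 clusters with the ErbB2 inhibitor, and Krt15 in all 5 with FGF2 and NRG1.

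Genes that share the layers were read in the same cells, from lists chosen with earlier results of these data known. Of 10 basal genes other than keratins (integrins, laminin chains, Col17a1, Dst, Trp63), 0 passed 1.5-fold in basal cells in any of the 4 comparisons. Their median log2 ratio was 0.04 with the ERK inhibitor, -0.06 with the ErbB2 inhibitor, 0.17 with the FGFR inhibitor and -0.12 with FGF2 and NRG1, where the medians of all genes were 0.05, 0.01, -0.01 and 0.01. Among the members furthest from 0 were Itgb4 (0.55) and Itga3 (-0.53) with the ERK inhibitor, Itga3 (0.46) and Lama3 (-0.45) with the ErbB2 inhibitor, Trp63 (0.28) with the FGFR inhibitor, and Trp63 (-0.32) and Itga6 (-0.22) with FGF2 and NRG1.

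Among 7 spinous genes other than keratins, measured in suprabasal cells, 2 of 6 were higher with the ERK inhibitor: Mt4 (1.22), a metallothionein, and Notch3 (0.70, on 5 and 26 UMIs). With the ErbB2 inhibitor 1 of 6 was higher, Sbsn (0.64), followed by Krtdap (0.53). With the FGFR inhibitor 0 of 6 passed, Notch3 (0.53) and Sbsn (0.53) being furthest from 0. With FGF2 and NRG1 0 of 7 passed, led by Sbsn (-0.28) and Dsg1b (-0.27). The list medians were 0.09, 0.27, 0.26 and -0.21, against 0.02, -0.11, -0.07 and -0.03 for all genes. Of all genes in suprabasal cells, 12.3%, 5.74%, 4.75% and 4.37% were higher in the same order.

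Granular genes, which follow the spinous keratins in differentiation, differed more in suprabasal cells. With the ErbB2 inhibitor 7 of 9 were higher, led by Asprv1 (1.90), a protease gene, and Klk7 (1.41), a kallikrein gene, and with the FGFR inhibitor 7 of 9, led by Flg2 (1.32) and Hrnr (1.25). The list medians were 1.01 and 0.99. With the ERK inhibitor 1 of 8 was higher, Asprv1 (0.91), and 3 lower; Flg2 had 0 against 349 UMIs, at least 15.95-fold lower against a floor of 3 UMIs. With FGF2 and NRG1 2 of 10 were higher and 3 lower, with Flg at 2.41 and Lor at -1.28. The medians there were -0.44 and -0.28. Of all genes in suprabasal cells, 5.74% were higher with the ErbB2 inhibitor and 4.75% with the FGFR inhibitor. With the ERK inhibitor 12.3% were higher and 12.9% lower, and with FGF2 and NRG1 4.37% and 5.56%. Other epidermal keratins (Krt78, Krt80, Krt23) were higher for 2 of 3 with the ErbB2 inhibitor and 3 of 3 with the FGFR inhibitor, Krt23 at 1.31 and 1.10 and Krt80 at 0.98 and 1.03. With the ERK inhibitor 1 of 3 was lower (Krt78, -1.14; Krt80, 0.07), and with FGF2 and NRG1 0 of 3 passed (Krt78, -0.57; Krt80, -0.39). The share of cluster 10, led by Flg2 and Flg, among annotated suprabasal cells was 8.44% with DMSO, 22.9% with the ERK inhibitor, 16.8% with the ErbB2 inhibitor and 16.2% with the FGFR inhibitor, and its part in these values was not tested.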

How the data were processed

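The deposited matrix gives, per the file headers, UMI counts (whole numbers) by gene and cell, from libraries made with 10x Genomics 3′ reagents per the labels' protocols. Cell Ranger 6.1.1 and the mouse build GRCm38 (mm10) are named in the submitters' processing notes and no source used here states the reference for spiny mouse reads or how cells were filtered. The second deposited table gives cell type, cluster, total UMIs and the percent of mitochondrial, haemoglobin and ribosomal UMIs per cell, per the file headers; the count sums of all 39577 cells matched its totals. Members and lists were chosen with earlier results of these data known.

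Counts were summed per library and class. The log2 ratio of CPM used a pseudocount of 1 UMI and was read for genes that reached 30 UMIs in the pair, with 1.5-fold needed for a call. Each cell was thinned to 1000 UMIs (seed 7) for shares. Clusters of at least 30 cells were compared; 41 and 46 were left out by a criterion chosen after seeing the data, as was the subtraction of the non-epithelial mean (members at least 2 times that mean in both libraries). Class totals ran from 1638271 UMIs (ERK inhibitor, suprabasal) to 25290988 (DMSO, basal), and intervals cover counting error only. Named genes are the 7 members, the 3 genes most like each (at least 300 UMIs), and 2 members of each of 9 lists with the largest log2 ratio, per comparison for layer lists and over all comparisons for the others. One list gene that this rule names and the type II stretches are not reported here. Some names (Krtdap, Krt78, clusters' leading genes) were chosen after their values were seen. The functions were tested on simulated data. Python 3.11.15, numpy 2.4.6, scipy 1.17.1 and pandas 2.3.3 were used.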

Additional observations from a re-analysis of the deposited data

How the results depend on the processing

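No paired analysis was possible because each group was 1 library. The number of pairs of member and layer past 1.5-fold was 7 with the ERK inhibitor, 4 with the ErbB2 inhibitor, 8 with the FGFR inhibitor and 6 with FGF2 and NRG1. It stayed within 1.5 times of that with no pseudocount, thinned or averaged cells, the control's mix of clusters, other scalings, all clusters, clusters 41 and 46 kept, or the deepest cells left out. A 2-fold threshold gave 3 with FGF2 and NRG1. Subtracting the non-epithelial mean, an alternative chosen after seeing the data, left 7 pairs in each inhibitor comparison and gave 0, 0 and 2 calls, and 6 with FGF2 and NRG1; fewer pairs could be read, since all 7 of the other layer dropped out. At the control's mix of clusters, 24 of the 56 pairs of all 4 comparisons were past 1.5-fold. A steady count can hold changed pairs. With the ERK inhibitor at the DMSO mix, basal Krt2 (-0.48) dropped out and suprabasal Krt1 (-0.90) came in. Over all pairs and alternatives, 270 log2 ratios stayed inside the counting interval of the main value. Another 266 moved outside it, and 1 changed sign. Suprabasal Krt14 with FGF2 and NRG1 turned from -0.63 to 0.081 with all clusters of the annotation. The layer pattern held in 42 of 42 pairs with all clusters of the annotation, with thinned cells and with averaged cells. It also held with the non-epithelial mean subtracted. There a member below that mean in the other layer passes by construction, such as suprabasal Krt5 with DMSO, so this alternative cannot decide for it. Of DMSO basal cells, 100% had both keratin sets without thinning and 92.0% with at least 3 UMIs of each, instead of 99.1%, where non-epithelial cells had 72.8% with at least 3 UMIs instead of 94.0%. The members' sum in DMSO non-epithelial cells was 23380 CPM, 19964 without cells over 5% member UMIs and 24345 thinned. The ERK inhibitor values are limited by the number of cells, 112 suprabasal ones in a library of 631. Depth limits genes with few UMIs, such as basal Krt77 in the mouse (29 against 72).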

Other observations

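The remaining keratin and epidermal lists were read in the same classes. As background, the shares of all genes past 1.5-fold in basal cells, lower then higher, were 11.1% and 14.5% for the ERK inhibitor, 7.05% and 7.47% with the ErbB2 inhibitor, 6.51% and 4.03% with the FGFR inhibitor, and 3.89% and 4.92% with FGF2 and NRG1. In suprabasal cells these shares were 12.9% and 12.3%, 13.7% and 5.74%, 11.9% and 4.75%, and 5.56% and 4.37%. Sheath keratins are here a list of hair follicle keratins (Krt71, Krt25, Krt27, Krt28, Krt73, Krt75, Krt79). In basal cells 6 of 7 were lower with the ERK inhibitor and 5 of 7 with the ErbB2 inhibitor. With the FGFR inhibitor 4 of 7 were lower and 1 higher, and with FGF2 and NRG1 6 of 7 were higher. In suprabasal cells 6, 5 and 5 of 7 were lower with the inhibitors and 4 of 5 higher with FGF2 and NRG1. Krt75 had 0 against 147 UMIs in FGFR inhibitor suprabasal cells (at least 35.3-fold lower against a floor of 3 UMIs), and Krt71 was at -6.56 in those of the ErbB2 inhibitor. Among these 7 genes in basal cells of the 3 inhibitor comparisons, 5 were under 2 times the non-epithelial mean per cell in at least 1 library. In suprabasal cells 6 of 7 were with the ERK inhibitor, 7 of 7 with the ErbB2 inhibitor and 6 of 7 with the FGFR inhibitor. With FGF2 and NRG1 4 of 7 were in basal and 4 of 5 in suprabasal cells. The part of background RNA in these values was not tested.

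Wound keratins were lower for 2 of 3 measured genes in basal and 3 of 3 in suprabasal cells with the ERK inhibitor, 1 and 1 with the ErbB2 inhibitor, and 0 and 2 with the FGFR inhibitor. With FGF2 and NRG1, 1 was higher and 1 lower in basal cells and 1 higher in suprabasal cells. The largest differences were suprabasal Krt17 (3 against 1605 UMIs, log2 ratio -5.78, interval -8.48 to -4.65) and Krt16 (-4.00) with the ERK inhibitor. In suprabasal cells 2 of the 3 were under 2 times the non-epithelial mean per cell in at least 1 library of each inhibitor comparison. In basal cells 0 of 3 were. The part of background RNA in these values was not tested. Simple epithelial keratins were lower for 2, 2 and 1 of 3 in basal cells with the inhibitors, with Krt7 at -3.50 (3 against 517 UMIs, interval -6.20 to -2.36) with the ERK inhibitor and Krt8 at -2.73 with the ErbB2 inhibitor. In suprabasal cells 1 of 1 was lower with each inhibitor, and none had 30 UMIs in the mouse. Other epidermal keratins in basal cells were lower for 2 of 3 with the ERK inhibitor and 1 of 3 with the FGFR inhibitor, and higher for 1 of 3 with the ErbB2 inhibitor, while 0 of 1 passed with FGF2 and NRG1. Under 2 times the non-epithelial mean in at least 1 library were 2 of these 3 in basal cells with each inhibitor. Of the simple epithelial keratins there, 1 of 3 was.

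Genes that anchor keratins at desmosomes and hemidesmosomes were lower for 3 of 8 in basal cells with the ERK inhibitor, 2 of 8 with the ErbB2 inhibitor, 1 of 8 with the FGFR inhibitor and 0 of 8 with FGF2 and NRG1. In suprabasal cells the counts were 3, 3 and 1, and 1 of 8 with FGF2 and NRG1. Jup, which encodes plakoglobin, was at -1.93 in basal cells with the ERK inhibitor, -1.64 with the ErbB2 inhibitor and -1.83 with the FGFR inhibitor, which share the DMSO control, and at -0.23 with FGF2 and NRG1. Its suprabasal values were -1.58, -1.33, -1.68 and -0.21. Eppk1 was at -0.92 in suprabasal cells with FGF2 and NRG1. Epidermal transcription factors were higher for 4 and lower for 3 of 11 in basal cells with the ERK inhibitor, lower for 2 and 3 of 11 with the ErbB2 and FGFR inhibitors, and higher for 1 of 10 with FGF2 and NRG1. Zfp750 was at -1.45 and Grhl3 at -1.24 in FGFR inhibitor basal cells, Grhl3 on 6 against 40 UMIs. In suprabasal cells 1 of 11 was higher with the ERK inhibitor and 0 passed in the other comparisons. Spinous genes other than keratins in basal cells were lower for 5 of 5, 0 of 5 and 4 of 6 with the inhibitors, and granular genes for 7, 0 and 6 of 8 (1 higher with the ErbB2 inhibitor). All of those spinous and granular genes were under 2 times the non-epithelial mean per cell in at least 1 library, and its part in them was not tested. With FGF2 and NRG1, 1 of 6 spinous genes was higher and 2 lower in basal cells, and 2 of 6 granular genes were higher and 1 lower. Basal genes other than keratins in suprabasal cells were lower for 6, 7 and 5 of 9 with the inhibitors and 0 of 9 with FGF2 and NRG1. In each inhibitor comparison 8 of these 9 were under 2 times the non-epithelial mean per cell in at least 1 library. With FGF2 and NRG1 4 of 9 were. The part of background RNA in these counts was not tested.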
